A study of Homo sapiens with 9 samples.

Results

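The 40 genes described here are MYC, its partner MAX and 38 genes that make ribosomes or that serve as standard MYC targets. They were taken by symbol from a fixed list of names, out of 61806 genes in the deposited table, and all 40 were among the 13562 genes that passed the filter on low counts. They were set against the 79 genes of cytosolic ribosomal proteins, which the same cells need for the same particle. MYC is a transcription factor that binds DNA as a dimer with MAX, most often at the E-box CACGTG. Its best known programme raises the transcription of ribosomal RNA by RNA polymerase I, the modification of that RNA by small nucleolar ribonucleoproteins (snoRNPs), and the assembly of the small and large subunits in the nucleolus. Ribosomal protein genes are transcribed separately by RNA polymerase II, and their messages begin with a run of pyrimidines through which translation is controlled.

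Polyadenylated RNA was sequenced from 786-O cells, a human clear cell renal carcinoma line that lacks functional VHL, in 3 groups of 3 libraries: TRIM28 knockdown, PARP1 knockdown and control. TRIM28 silences chromatin where KRAB zinc finger proteins recruit it, and PARP1 builds poly(ADP-ribose) chains on proteins at damaged DNA. The labels describe the same silencing reagents as siRNA in one field and shRNA in another, and the control is a negative control in one place and parental in another, which leaves the reagent and the handling of the control uncertain. All 9 libraries carry a wild type genotype and the same batch label, and whether replicates were grown separately is not said, so p-values here reflect the spread among these libraries, possibly technical.

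Total counts per library ran from 12840619 to 16346186 in TRIM28 knockdown and from 11963110 to 15629533 in PARP1 knockdown. In control they ran from 18042542 to 20224374, so every control library was deeper than every knockdown library. TRIM28 itself had 44.0, 54.7 and 58.0 CPM (counts scaled to library size with edgeR's TMM factors) in TRIM28 knockdown, against 316, 341 and 381 CPM in control. PARP1 had 6.82, 4.48 and 5.24 CPM in PARP1 knockdown and 94.4, 93.3 and 93.6 CPM in TRIM28 knockdown, against 178, 200 and 153 CPM in control. PAX8 (33.1 to 55.1 FPKM) and VIM (498 to 1140 FPKM) were high in every library, while CA9 (at most 1.32 FPKM) and NDUFA4L2 (at most 0.08 FPKM), both usual markers of this carcinoma, were at or near 0. Markers of other cell types summed to 0.66 to 1.23 FPKM in TRIM28 knockdown, 0.63 to 0.84 FPKM in PARP1 knockdown and 0.52 to 1.18 FPKM in control over 9 genes, with PTPRC, CD3E and NPHS1 among those at 0 in all 9 libraries. In bulk RNA of this kind, fewer cells of a type and less RNA per cell cannot be told apart.

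The 40 genes did not move as a block in either knockdown. In TRIM28 knockdown 10 rose (25%), 15 fell (37.5%) and 15 did not pass, against 10.3% of all genes tested higher and 17.5% lower. In PARP1 knockdown 12 rose (30%), 20 fell (50%) and 8 did not pass, against a background of 27.1% higher and 32.2% lower, so the share that rose lay near the background and the share that fell lay above it. Here rose and fell mean an adjusted p below 0.05 in edgeR (quasi-likelihood test, two-sided, Benjamini-Hochberg adjustment over all genes tested), and each log2 fold change carries its standard error, with 3 libraries a group. Falls were also the deeper changes: 7 of the 40 fell at least 2-fold in TRIM28 knockdown, where 5.6% of all genes did, and 15 in PARP1 knockdown, where 18.8% did. Rises of that size numbered 0 in TRIM28 knockdown (background 0.376%) and 2 in PARP1 knockdown (background 7.34%), RRP9 and NME1. The median log2 fold change of the 40 was -0.09 in TRIM28 knockdown and -0.37 in PARP1 knockdown, where the medians of all genes were -0.02 and -0.07. Without overlap of libraries, 14 members lay above control and 17 below in TRIM28 knockdown, against 2869 and 3426 of all 13562 genes. In PARP1 knockdown 13 lay above and 20 below, against 4136 and 4470. Groups that lie apart, as given below, were thus common among all genes.

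**Figure D1:**
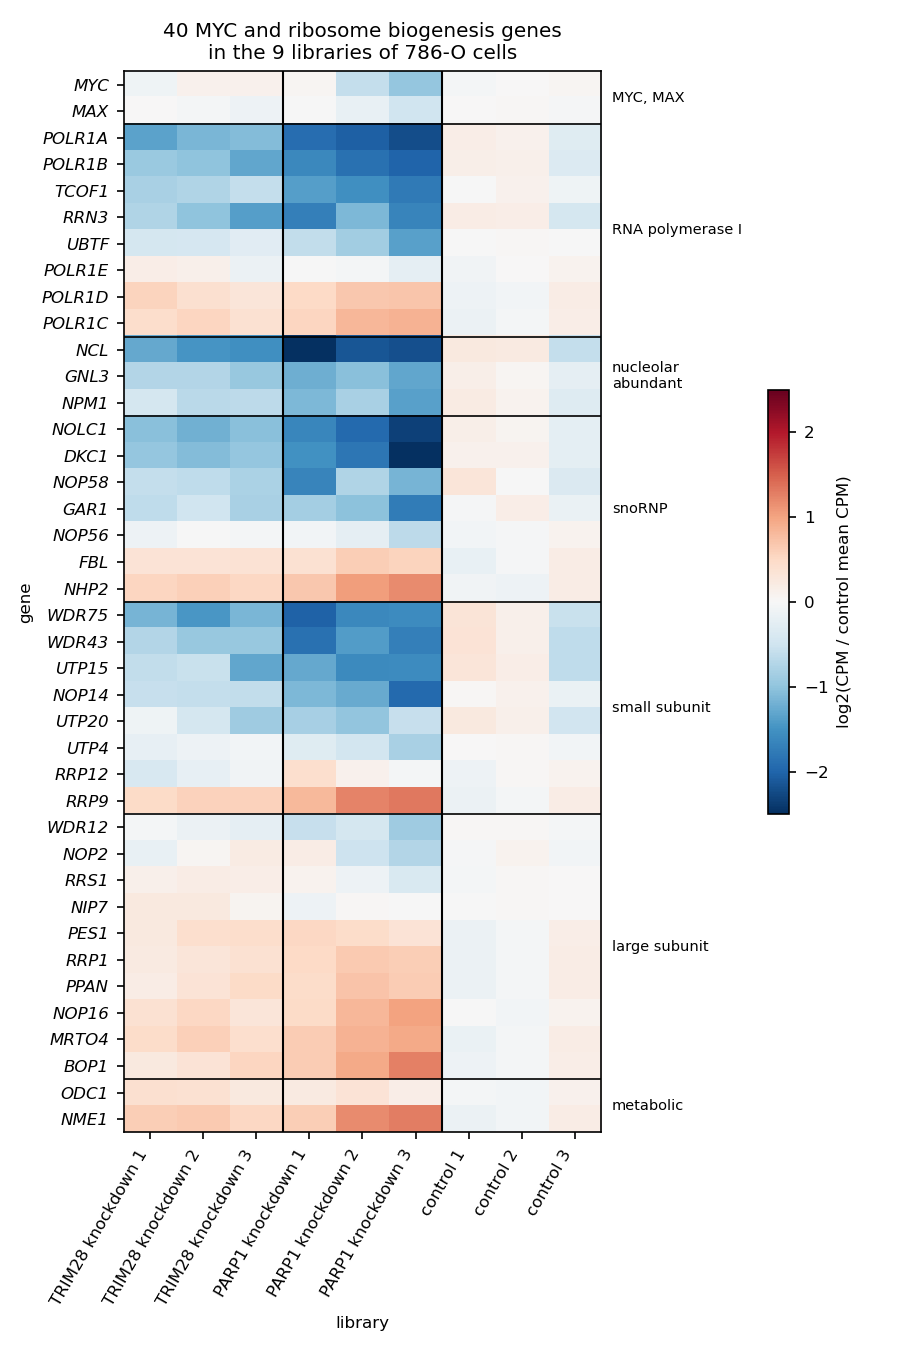
Level of each of the 40 genes in each of the 9 libraries, as log2 of its CPM over the control mean (colour; blue lower, red higher), with genes in rows grouped by role and libraries in columns. NCL, POLR1A, DKC1 and NOLC1 are blue in all 6 knockdown libraries, while NHP2, RRP9 and NME1 are red in all 6, and control replicate 3 is paler or bluer than control replicates 1 and 2 for most of the genes that fell.

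Both comparisons use the same control libraries, so their values are given side by side and are not independent. Calls shared by both knockdowns were not counted over all genes tested, so the shared calls below have no background beside them. Of the 40 genes, 9 rose in both knockdowns (FBL, MRTO4, NHP2, NME1, NOP16, PES1, POLR1C, POLR1D and RRP9) and 15 fell in both (DKC1, GAR1, GNL3, NCL, NOLC1, NOP14, NOP58, NPM1, POLR1A, POLR1B, RRN3, TCOF1, UTP15, WDR43 and WDR75). ODC1 passed in TRIM28 knockdown alone, where it rose. BOP1, PPAN and RRP1 passed in PARP1 knockdown alone, where they rose, as did MYC, UBTF, UTP20, UTP4 and WDR12, which fell. MAX, NIP7, NOP2, NOP56, POLR1E, RRP12 and RRS1 passed in neither. A pass in one knockdown alone does not show that the knockdowns differ; the direct test is given further on.

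The summed share of counts taken by the 40 genes was 0.672% ± 0.00458 in TRIM28 knockdown and 0.607% ± 0.0357 in PARP1 knockdown, against 0.757% ± 0.0295 in control (SD, n = 3 each). Ribosomal protein genes took 14.6% ± 0.907 in TRIM28 knockdown and 17.3% ± 2.18 in PARP1 knockdown, against 11.6% ± 0.874 in control. The PARP1 knockdown libraries were spread: the median log2 ratio of the 40 genes to the control mean was -0.102, -0.441 and -0.676 in replicates 1, 2 and 3, against -0.118, -0.085 and -0.107 in the TRIM28 knockdown libraries and -0.017, 0.024 and -0.016 in control. PARP1 knockdown replicate 1 thus lay inside the range of the TRIM28 knockdown libraries by this measure. Total counts of PARP1 knockdown replicates 1, 2 and 3 fell in the same order (15629533, 13697520 and 11963110). The part of depth in this spread was not tested. The median fold change of the 40 genes in PARP1 knockdown was -0.62 without replicate 1 and -0.19 without replicate 3.

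The promoters of the 2 gene groups differed in the letters they carry. The member promoters below were chosen for holding an E-box, among members with sample values given here. Those of POLR1A, NCL, DKC1 and POLR1B, which fell in both knockdowns, held no E-box. RefSeq windows (GRCh38.p14) from 250 bases before to 50 after the first listed start were at hand for 32 of the 40 genes and 63 of the 79 ribosomal protein genes. The E-box CACGTG, which reads the same on both strands, was present in 10 of the 32 (31.2%), in 3 of the 63 ribosomal protein promoters (4.76%) and in 28 of 94 promoters of other ribosome biogenesis genes (29.8%). Among 10118 promoters of genes tested here the share was 10.2%, and it was 7.43% among all 27305 promoters in RefSeq's table. A run of at least 8 C or T on the sense strand, counted inside the 20 bases on each side of the start, was present in 5 of the 32 (15.6%), in 53 of the 63 (84.1%) and in 16.3% of promoters of tested genes. Each sequence below covers 100 bases before to 50 after the start, 5′ to 3′ on the gene's strand. Capitals mark the E-box in NOP14 (chr4:2963357-2963506, minus strand) and WDR43 (chr2:28894567-28894716, plus strand), which fell in both knockdowns, and in RRP9 (chr3:51941855-51942004, minus strand), NME1 (chr17:51153459-51153608, plus strand) and MRTO4 (chr1:19251705-19251854, plus strand), which rose in both.
NOP14: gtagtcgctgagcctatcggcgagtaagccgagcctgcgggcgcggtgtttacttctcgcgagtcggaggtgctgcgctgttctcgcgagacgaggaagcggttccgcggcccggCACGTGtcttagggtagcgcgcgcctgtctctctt
WDR43: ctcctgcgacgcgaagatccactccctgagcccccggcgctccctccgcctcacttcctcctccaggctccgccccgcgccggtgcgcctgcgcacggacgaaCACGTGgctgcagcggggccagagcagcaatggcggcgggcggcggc
RRP9: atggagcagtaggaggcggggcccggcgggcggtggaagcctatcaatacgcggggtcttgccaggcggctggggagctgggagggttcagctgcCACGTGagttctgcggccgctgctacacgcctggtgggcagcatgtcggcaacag
NME1: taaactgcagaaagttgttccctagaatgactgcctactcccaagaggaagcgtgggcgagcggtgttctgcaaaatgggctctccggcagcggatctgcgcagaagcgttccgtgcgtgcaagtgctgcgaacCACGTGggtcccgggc
MRTO4: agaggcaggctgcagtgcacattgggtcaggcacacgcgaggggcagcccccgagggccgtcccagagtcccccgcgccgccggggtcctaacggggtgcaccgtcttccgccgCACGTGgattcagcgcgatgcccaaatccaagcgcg

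For contrast, the ribosomal protein promoters of RPL18 (chr19:48619129-48619278, minus strand) and FAU (chr11:65122085-65122234, minus strand) are shown. They were picked among those with a pyrimidine run, so the presence of the run in them is not a result. Both hold no E-box in this window, and capitals mark the run at the start. FAU encodes a fusion of a ubiquitin-like protein with ribosomal protein eS30.
RPL18: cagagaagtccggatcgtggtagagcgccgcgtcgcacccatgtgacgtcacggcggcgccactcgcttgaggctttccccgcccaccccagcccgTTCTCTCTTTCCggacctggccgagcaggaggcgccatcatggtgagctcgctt
FAU: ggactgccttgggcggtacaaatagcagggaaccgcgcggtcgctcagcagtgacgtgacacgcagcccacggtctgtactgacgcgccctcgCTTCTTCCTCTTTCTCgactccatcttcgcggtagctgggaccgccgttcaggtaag

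The E-boxes of the 10 members lay close to the start, between 16 bases before it (UTP4) and 36 after it (NOP2). Their genes moved in both directions. Of the 10 with an E-box, 5 rose and 2 fell in TRIM28 knockdown, and 5 rose and 4 fell in PARP1 knockdown. Of the 22 without one, 5 rose and 10 fell in TRIM28 knockdown, and 6 rose and 12 fell in PARP1 knockdown. Of all genes tested 10.3% rose and 17.5% fell in TRIM28 knockdown, and 27.1% and 32.2% in PARP1 knockdown. Calls were not counted over all tested genes with an E-box, so these numbers do not show that an E-box goes with either direction. A match is a description of these letters and not a binding site, and no difference between the subsets was tested.

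MYC (ENSG00000136997, chromosome 8) was below the control range in 2 of 3 PARP1 knockdown libraries and on both sides of it in TRIM28 knockdown. It had 92.5, 108 and 108 CPM in TRIM28 knockdown and 104, 66.0 and 51.2 CPM in PARP1 knockdown, against 96.5, 101 and 103 CPM in control. PARP1 knockdown replicate 1 lay above all 3 control libraries and replicates 2 and 3 below them, and the TRIM28 knockdown libraries lay on both sides of the control range. The log2 fold change was 0.04 ± 0.17 in TRIM28 knockdown (adjusted p = 0.882) and -0.44 ± 0.17 in PARP1 knockdown (adjusted p = 0.0314). The second call ended without PARP1 knockdown replicate 2 (-0.36, adjusted p = 0.129) or 3 (-0.23, 0.197), without TRIM28 knockdown replicate 2 or 3 (-0.40 each), without any 1 of the control libraries (-0.42 to -0.37), with DESeq2 (-0.39, adjusted p = 0.0631) and with gene length trends removed (-0.31, adjusted p = 0.114). Without PARP1 knockdown replicate 1 the value was -0.77. The call stayed with length and GC trends both removed (-0.48, adjusted p = 0.0133) and with library totals as the scale (-0.74, adjusted p = 0.0068). It also stayed with DESeq2 size factors in edgeR, the compared groups alone, limma at either pseudocount, no filter and a replicate block. MAX (ENSG00000125952), the obligate dimer partner, had 53.2, 51.2 and 48.8 CPM in TRIM28 knockdown and 52.6, 47.0 and 37.6 CPM in PARP1 knockdown, against 53.2, 54.1 and 52.3 CPM in control. It passed in neither knockdown (log2 fold changes -0.06 ± 0.14 and -0.21 ± 0.14, adjusted p = 0.783 and 0.184), though it fell in PARP1 knockdown without PARP1 knockdown replicate 1 (-0.33, adjusted p = 0.0364), and it overlaps the tested gene FNTB on the opposite strand.

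**Figure D2:**
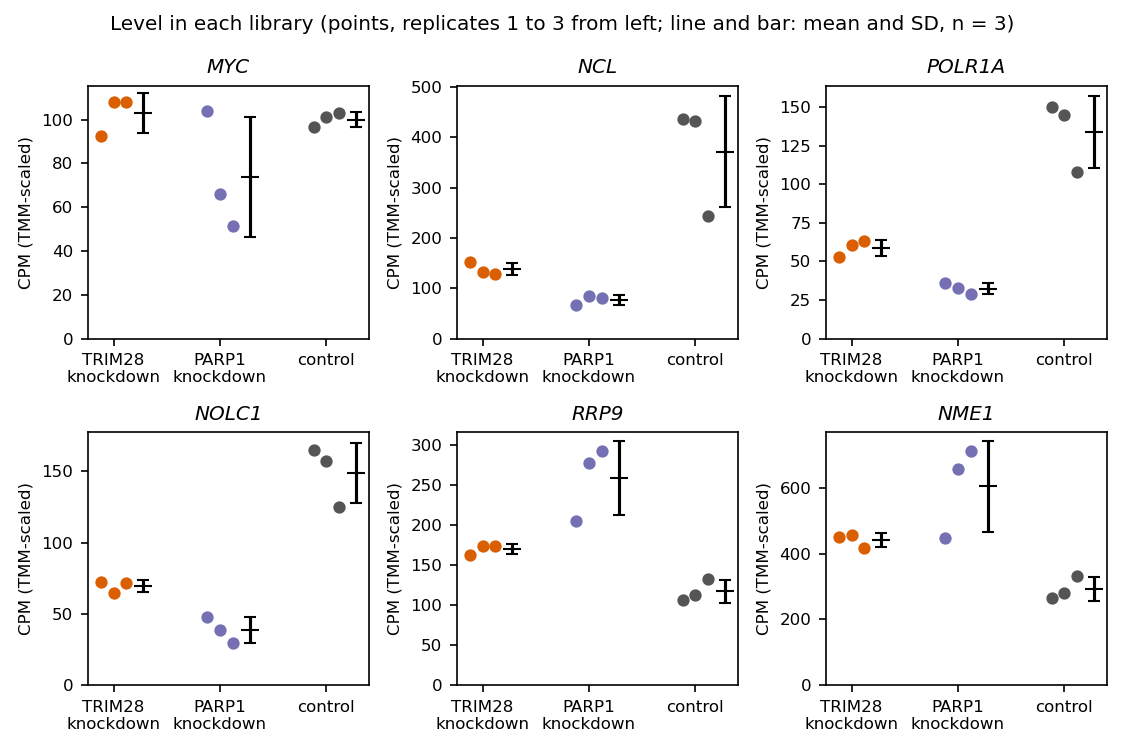
Level of MYC and of 5 members that fell or rose at least 2-fold in PARP1 knockdown, in CPM (vertical axes, from 0), with a point for each library and the mean and SD of each group (n = 3) beside the points. The 3 control points of NCL (437, 432 and 244 CPM) lie above all knockdown points, while MYC overlaps between all 3 groups.

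Genes of RNA polymerase I moved apart by subunit. POLR1A and POLR1B, the large subunits that form the catalytic centre, fell in both knockdowns, as did RRN3, which brings the polymerase to the ribosomal DNA promoter, and TCOF1 (treacle), a nucleolar phosphoprotein that supports ribosomal DNA transcription. POLR1C and POLR1D, subunits that the enzyme shares with RNA polymerase III, rose in both. UBTF, the HMG-box protein that keeps ribosomal genes open, fell in PARP1 knockdown, and the subunit POLR1E passed in neither. In all, 2 of the 8 genes rose and 4 fell in TRIM28 knockdown, and 2 rose and 5 fell in PARP1 knockdown. As shares these are 25% and 50% in TRIM28 knockdown, against 10.3% and 17.5% of all genes tested. In PARP1 knockdown they are 25% and 62.5%, against 27.1% and 32.2%, so the share that rose there lay near the background.

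POLR1A (ENSG00000068654, chromosome 2, 86020216 to 86106155, minus strand, GRCh38) had 53.0, 60.5 and 63.0 CPM in TRIM28 knockdown and 35.8, 32.7 and 28.8 CPM in PARP1 knockdown, against 150, 145 and 108 CPM in control. Its log2 fold change was -1.19 ± 0.14 in TRIM28 knockdown (adjusted p = 2.13e-06) and -2.05 ± 0.15 in PARP1 knockdown (adjusted p = 1.63e-10), and the 3 groups did not overlap. POLR1B had 15.2, 14.4 and 11.8 CPM in TRIM28 knockdown and 9.54, 8.03 and 7.22 CPM in PARP1 knockdown, against 32.4, 31.7 and 23.1 CPM in control. Here too the groups were apart, with log2 fold changes of -1.08 ± 0.17 and -1.80 ± 0.18 (adjusted p = 6.97e-05 and 1.43e-08). TCOF1 had 102, 106 and 118 CPM in TRIM28 knockdown and 69.3, 61.9 and 52.3 CPM in PARP1 knockdown, against 177, 193 and 166 CPM in control. That gave log2 fold changes of -0.72 ± 0.13 and -1.55 ± 0.14, with no overlap between groups. RRN3 had 14.4, 12.1 and 9.34 CPM in TRIM28 knockdown and 7.42, 11.2 and 7.82 CPM in PARP1 knockdown, against 27.9, 27.5 and 17.9 CPM in control. Both knockdowns lay below control (-1.03 ± 0.20 and -1.47 ± 0.21) and overlapped each other. RRN3 reads are uncertain, since the table lists 4 pseudogenes of it, with 148 counts over all libraries against 2397 for RRN3, and PDXDC1 overlaps it on the opposite strand.

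POLR1C had 158, 169 and 152 CPM in TRIM28 knockdown and 168, 205 and 211 CPM in PARP1 knockdown, against 105, 112 and 131 CPM in control. All 6 knockdown libraries lay above all 3 control libraries, with log2 fold changes of 0.46 ± 0.13 (adjusted p = 0.0129) and 0.74 ± 0.13 (adjusted p = 3.98e-05). POLR1C overlaps XPO5 and YIPF3 on the opposite strand; POLR1D overlaps no tested gene and had log2 fold changes of 0.42 ± 0.13 and 0.62 ± 0.13. The TRIM28 knockdown call of POLR1C ended without TRIM28 knockdown replicate 2 (0.45) or control replicate 1 (0.41) or 2 (0.45), and that of POLR1D without TRIM28 knockdown replicate 1 (0.35) or 2 (0.46) or control replicate 1 (0.38) or 2 (0.40). UBTF averaged 193 ± 11.5 CPM in TRIM28 knockdown and 133 ± 33.1 CPM in PARP1 knockdown, against 251 ± 3.53 CPM in control (SD, n = 3 each). Its log2 fold change was -0.38 ± 0.15 in TRIM28 knockdown (adjusted p = 0.0571) and -0.91 ± 0.15 in PARP1 knockdown (adjusted p = 1.13e-05). In TRIM28 knockdown it passed without PARP1 knockdown replicate 1 or 3 in the fit (-0.37 each, adjusted p = 0.00835 and 0.0126).

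Among the snoRNP genes, proteins of the same particle moved apart. DKC1, the pseudouridine synthase of H/ACA particles and of telomerase, its partner GAR1, NOLC1 (Nopp140), a chaperone of snoRNPs in nucleoli and Cajal bodies, and NOP58, a core protein of box C/D particles, fell in both knockdowns. NHP2, another H/ACA core protein, and FBL (fibrillarin), the methyltransferase of box C/D particles, rose in both. NOP56, the box C/D partner of NOP58, passed in neither (-0.06 ± 0.14 and -0.30 ± 0.14), though it fell in PARP1 knockdown without PARP1 knockdown replicate 1 (-0.43, adjusted p = 0.00335). It had 583 ± 23.7 CPM in TRIM28 knockdown and 496 ± 98.3 CPM in PARP1 knockdown, against 609 ± 31.5 CPM in control (SD, n = 3 each). That made 2 of 7 higher (28.6%) and 4 lower (57.1%) in each knockdown. Of all genes tested 10.3% were higher and 17.5% lower in TRIM28 knockdown, and 27.1% and 32.2% in PARP1 knockdown. The share that rose in PARP1 knockdown thus lay near the background.

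NOLC1 (ENSG00000166197, chromosome 10, 102152176 to 102163871, plus strand) had 72.5, 64.6 and 71.8 CPM in TRIM28 knockdown and 47.8, 38.9 and 29.4 CPM in PARP1 knockdown, against 165, 157 and 125 CPM in control. The groups did not overlap, and the log2 fold changes were -1.10 ± 0.15 (adjusted p = 1.24e-05) and -1.94 ± 0.16 (adjusted p = 5.91e-10). DKC1 had 75.8, 69.7 and 75.3 CPM in TRIM28 knockdown and 52.1, 42.5 and 26.2 CPM in PARP1 knockdown, against 159, 160 and 125 CPM in control. Its values were likewise apart in all 3 groups, at -1.01 ± 0.17 and -1.87 ± 0.17 (adjusted p = 0.000115 and 4.17e-09). GAR1 had 57.7, 63.5 and 50.8 CPM in TRIM28 knockdown and 49.6, 43.6 and 26.6 CPM in PARP1 knockdown, against 87.4, 100 and 79.9 CPM in control, which is -0.64 ± 0.17 and -1.15 ± 0.17 on the log2 scale. Its TRIM28 knockdown call ended without control replicate 2 (-0.53, adjusted p = 0.0538). NOP58 had 9.03, 8.77 and 7.90 CPM in TRIM28 knockdown and 4.37, 8.12 and 6.13 CPM in PARP1 knockdown, against 17.0, 13.6 and 10.6 CPM in control. Its log2 fold changes were -0.68 ± 0.21 and -1.15 ± 0.22. The TRIM28 knockdown call of NOP58 ended without any single TRIM28 knockdown library (-0.72 to -0.61) and without control replicate 1 (-0.48) or 2 (-0.67).

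NHP2 (ENSG00000145912, chromosome 5, 178149463 to 178153894, minus strand) had 203, 211 and 201 CPM in TRIM28 knockdown and 224, 287 and 319 CPM in PARP1 knockdown, against 131, 129 and 159 CPM in control. The 3 groups were apart, and the log2 fold changes were 0.55 ± 0.14 (adjusted p = 0.00489) and 0.99 ± 0.14 (adjusted p = 1.75e-06). FBL averaged 276 ± 2.66 CPM in TRIM28 knockdown and 309 ± 25.9 CPM in PARP1 knockdown, against 216 ± 27.0 CPM in control (SD, n = 3 each). It rose by 0.36 ± 0.13 and 0.52 ± 0.13, and the TRIM28 knockdown call ended without any 1 TRIM28 knockdown library (0.36 to 0.39), control replicate 1 (0.29) or 2 (0.36), or PARP1 knockdown replicate 2 (0.36). With length and GC trends removed neither rise passed in either knockdown: NHP2 stood at 0.12 and 0.11 and FBL at 0.05 and -0.04.

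Small subunit processome genes fell more often than they rose, as did all genes tested (17.5% lower and 10.3% higher in TRIM28 knockdown, 32.2% and 27.1% in PARP1 knockdown). WDR43, WDR75 and UTP15, which belong to the complex that links ribosomal DNA transcription to processing of the pre-rRNA, and NOP14, a scaffold of the processome, fell in both knockdowns. UTP4, of the first complex too, and UTP20 fell in PARP1 knockdown, and UTP20 also passed in TRIM28 knockdown without control replicate 3 (-0.60, against -0.44 with it). RRP9, a protein of the U3 snoRNP that guides the early cleavages, was the member that rose, and it did so in both. In TRIM28 knockdown 1 of 8 rose and 4 fell, and in PARP1 knockdown 1 rose and 6 fell, with RRP12, a factor for export of pre-ribosomal subunits, passing in neither.

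WDR75 (ENSG00000115368, chromosome 2, 189441446 to 189475552, plus strand) had 5.60, 4.62 and 5.67 CPM in TRIM28 knockdown and 3.11, 4.14 and 4.25 CPM in PARP1 knockdown, against 15.7, 13.7 and 8.57 CPM in control. Both knockdowns lay below control, with log2 fold changes of -1.25 ± 0.23 (adjusted p = 0.000271) and -1.73 ± 0.24 (adjusted p = 1.20e-06). WDR43 had 23.0, 19.7 and 19.8 CPM in TRIM28 knockdown and 10.5, 14.4 and 11.7 CPM in PARP1 knockdown, against 48.2, 41.4 and 24.5 CPM in control. The groups were apart, at -0.87 ± 0.19 and -1.64 ± 0.20. NOP14 (its E-box promoter is printed above) had 89.8, 89.1 and 87.8 CPM in TRIM28 knockdown and 61.3, 56.2 and 34.9 CPM in PARP1 knockdown, against 136, 145 and 119 CPM in control. It was apart in all groups as well, at -0.59 ± 0.16 (adjusted p = 0.00700) and -1.39 ± 0.16 (adjusted p = 9.04e-08), and the TRIM28 knockdown call ended without control replicate 2 (-0.50, adjusted p = 0.0541). UTP15 had 6.23, 6.46 and 3.86 CPM in TRIM28 knockdown and 3.91, 3.13 and 3.17 CPM in PARP1 knockdown, against 11.7, 10.7 and 6.08 CPM in control. TRIM28 knockdown overlapped control (-0.79 ± 0.25, adjusted p = 0.0200), and that call ended without TRIM28 knockdown replicate 3 (-0.56) or control replicate 1 (-0.59) or 2 (-0.68). PARP1 knockdown did not overlap control (-1.47 ± 0.26).

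RRP9 (ENSG00000114767, chromosome 3, 51933429 to 51941904, minus strand) had 163, 174 and 174 CPM in TRIM28 knockdown and 205, 278 and 292 CPM in PARP1 knockdown, against 106, 113 and 133 CPM in control. All 3 groups were apart, with log2 fold changes of 0.54 ± 0.14 (adjusted p = 0.00704) and 1.14 ± 0.14 (adjusted p = 3.25e-07). Its TRIM28 knockdown call ended without control replicate 1 (0.48, adjusted p = 0.0538). RRP9 is short and rich in GC (1542 bases of exon, 60.9% GC), and with length and GC trends removed its values were 0.06 and 0.10, passing in neither knockdown.

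In large subunit assembly rises outnumbered falls. In TRIM28 knockdown 3 of 10 rose and 0 fell (0 by DESeq2, and 0 at an unadjusted p below 0.05 in edgeR), and in PARP1 knockdown 6 rose and 1 fell. Of all genes tested 10.3% rose and 17.5% fell in TRIM28 knockdown, and 27.1% and 32.2% in PARP1 knockdown. These 10 genes had a median GC content of 56.1%. Among all genes at or above 50% GC, rises outnumbered falls too: 16.1% and 7.2% in TRIM28 knockdown, 45.3% and 14.6% in PARP1 knockdown. The PeBoW complex is made of PES1, BOP1 and WDR12 and is needed for maturation of the large subunit rRNA. In PARP1 knockdown it was split as counted: PES1 (0.43 ± 0.13) and BOP1 (0.97 ± 0.15) rose and WDR12 (-0.62 ± 0.14) fell. With length and GC trends removed the split did not hold. Of these genes BOP1 alone still passed (0.32), and the value of WDR12 changed sign. MRTO4, a factor related to the ribosomal stalk protein P0, NOP16, PPAN and RRP1, all nucleolar factors of the large subunit, rose in PARP1 knockdown. NOP2, an rRNA methyltransferase, RRS1, which takes part in loading the 5S particle, and NIP7 passed in neither knockdown. NOP2 did fall in PARP1 knockdown without PARP1 knockdown replicate 1 (-0.62, adjusted p = 0.000527), against -0.29 ± 0.18 with it. In TRIM28 knockdown RRP1 (0.30) and PPAN (0.34) did not pass, but both did without PARP1 knockdown replicate 1 in the fit (0.30 and 0.34) or without control replicate 3 (0.42 and 0.46), and PPAN also without PARP1 knockdown replicate 3 (0.34). In DESeq2 BOP1, PPAN and RRP1 passed in TRIM28 knockdown (adjusted p = 0.042, 0.041 and 0.0359).

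MRTO4 (ENSG00000053372, chromosome 1, 19251805 to 19260128, plus strand) had 504, 558 and 492 CPM in TRIM28 knockdown and 571, 671 and 709 CPM in PARP1 knockdown, against 328, 357 and 420 CPM in control. All 3 groups were apart, with log2 fold changes of 0.49 ± 0.13 (adjusted p = 0.00834) and 0.82 ± 0.13 (adjusted p = 1.09e-05). The first of these calls ended without TRIM28 knockdown replicate 2 (0.46, adjusted p = 0.0501) or control replicate 1 (0.43, adjusted p = 0.0638). BOP1 had 220, 237 and 269 CPM in TRIM28 knockdown and 288, 359 and 448 CPM in PARP1 knockdown, against 170, 179 and 209 CPM in control. The 3 groups did not overlap, but the TRIM28 knockdown value of 0.38 ± 0.15 did not pass (adjusted p = 0.0548). It passed without PARP1 knockdown replicate 1 (0.38, adjusted p = 0.00742) or 3 (0.38, adjusted p = 0.0172) or control replicate 3 (0.50, adjusted p = 0.0254). WDR12 had 50.2, 47.1 and 44.7 CPM in TRIM28 knockdown and 35.0, 38.4 and 28 CPM in PARP1 knockdown, against 53.0, 53.0 and 50.4 CPM in control. All 6 knockdown libraries lay below all 3 control libraries, narrowly so in TRIM28 knockdown, where the log2 fold change of -0.14 did not pass. In TRIM28 knockdown PES1 (0.37 ± 0.13) and NOP16 (0.39 ± 0.14) also rose, and both calls ended without TRIM28 knockdown replicate 2 (0.38 and 0.36) or control replicate 1 (0.33 and 0.40) or 2 (0.37 and 0.38), and further without TRIM28 knockdown replicate 3 for PES1 (0.35) or 1 for NOP16 (0.41). PPAN overlaps P2RY11 and a readthrough gene on its own strand, so its reads are uncertain.

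Against 17.5% (TRIM28 knockdown) and 32.2% (PARP1 knockdown) of all genes tested, the abundant nucleolar proteins fell in both knockdowns, 3 of 3. They are NCL (nucleolin), an RNA-binding protein of the nucleolus, NPM1 (nucleophosmin), which stores and chaperones ribosomal proteins, and GNL3 (nucleostemin), a nucleolar GTPase. NCL (ENSG00000115053, chromosome 2, 231453531 to 231483641, minus strand) had 152, 133 and 128 CPM in TRIM28 knockdown and 65.8, 84.5 and 81.0 CPM in PARP1 knockdown, against 437, 432 and 244 CPM in control. The groups were apart, although control replicate 3 lay far below the other control libraries, and the log2 fold changes of -1.43 ± 0.17 (adjusted p = 2.05e-06) and -2.27 ± 0.18 (adjusted p = 3.06e-10) were the lowest of the 40 in both knockdowns. NPM1 had 465, 395 and 400 CPM in TRIM28 knockdown and 290, 357 and 244 CPM in PARP1 knockdown, against 721, 666 and 502 CPM in control. Its log2 fold changes were -0.58 ± 0.15 and -1.08 ± 0.15 with no overlap. The TRIM28 knockdown call of NPM1 ended without TRIM28 knockdown replicate 2 (-0.51) or control replicate 1 (-0.45), and with length and GC trends removed it passed in neither (-0.11 and -0.23). The table lists 49 pseudogenes of NPM1, which held 1580 counts over all libraries against 69743 for NPM1, so some of its reads are uncertain. GNL3 had 34.9, 34.8 and 30 CPM in TRIM28 knockdown and 24.8, 28.1 and 23.5 CPM in PARP1 knockdown, against 64.1, 59.4 and 49.5 CPM in control, apart in all groups, at -0.79 ± 0.14 and -1.18 ± 0.14.

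Both metabolic MYC targets rose in TRIM28 knockdown, where 10.3% of all genes tested did. NME1 (ENSG00000239672, chromosome 17, 51153559 to 51162428, plus strand), a nucleoside diphosphate kinase, had 450, 458 and 419 CPM in TRIM28 knockdown and 449, 658 and 712 CPM in PARP1 knockdown, against 265, 279 and 333 CPM in control. All 6 knockdown libraries lay above control, with log2 fold changes of 0.60 ± 0.15 (adjusted p = 0.00467) and 1.05 ± 0.15 (adjusted p = 1.85e-06), and both passed with length and GC trends removed (0.62 and 1.23). NME1 overlaps the readthrough gene NME1-NME2 on its own strand, which held a mean of 111 counts per library against 6690. ODC1, the rate-limiting enzyme of polyamine synthesis, averaged 552 ± 33.7 CPM in TRIM28 knockdown and 517 ± 32.2 CPM in PARP1 knockdown, against 435 ± 31.3 CPM in control (SD, n = 3 each). It rose by 0.34 ± 0.12 in TRIM28 knockdown (adjusted p = 0.0404), a call that ended in 6 of the 9 fits that left out 1 library (0.31 to 0.41), namely any TRIM28 knockdown library, control replicate 1 or 2, or PARP1 knockdown replicate 2. The value of 0.25 ± 0.12 in PARP1 knockdown did not pass (adjusted p = 0.0842), though it did without control replicate 3 (0.35, adjusted p = 0.0197).

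**Figure D3:**
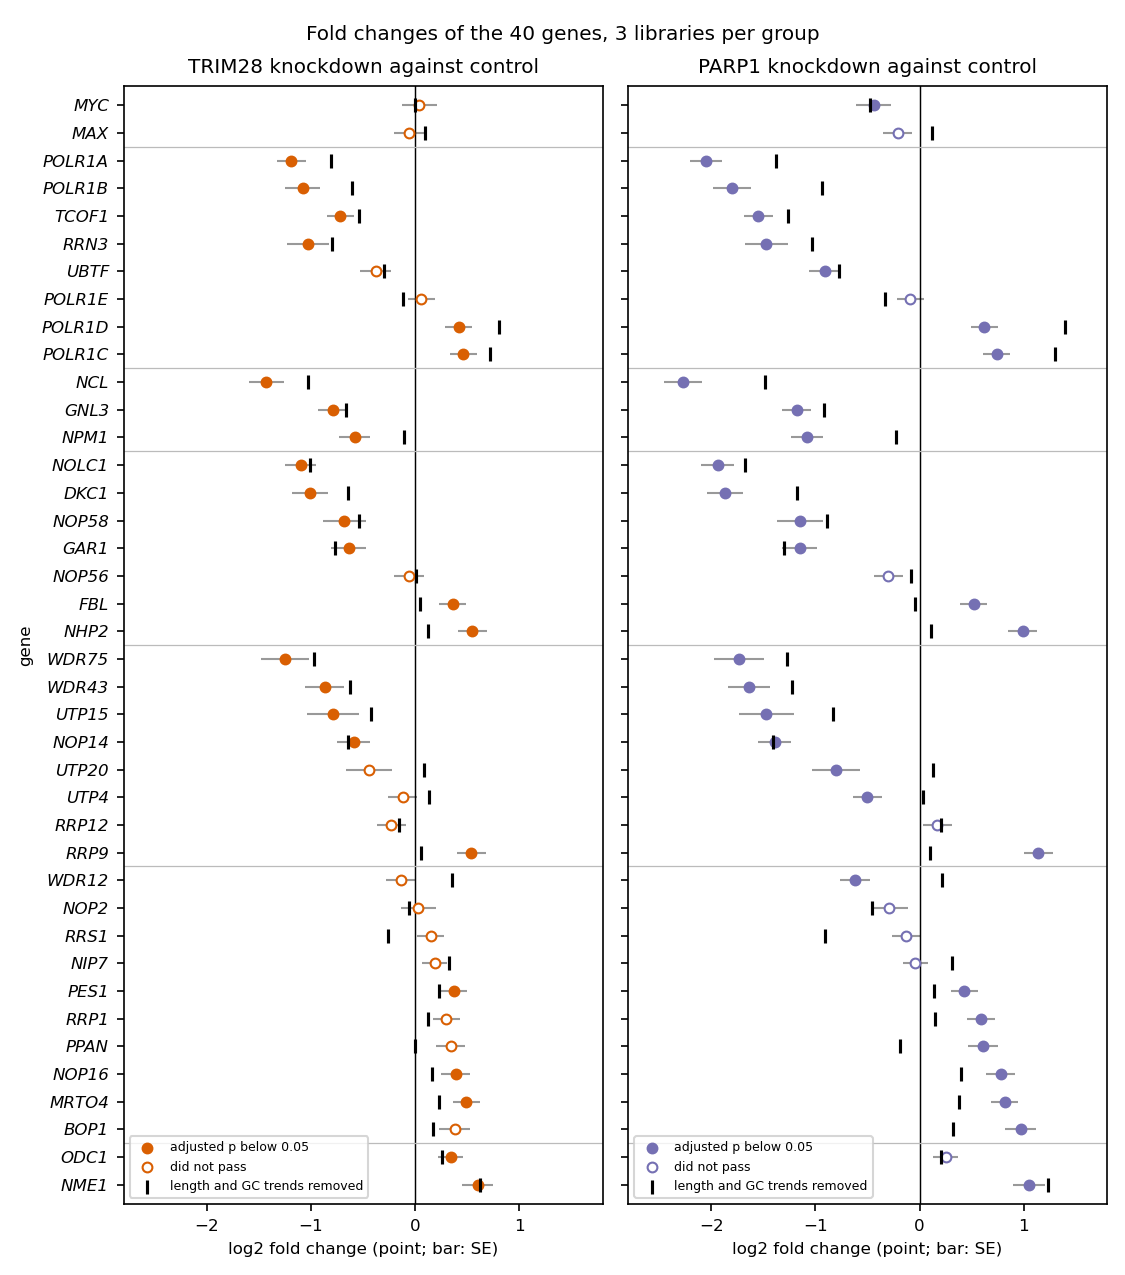
Log2 fold change of each of the 40 genes in TRIM28 knockdown (left) and PARP1 knockdown (right) against control, with bars for the standard error, filled points where the adjusted p was below 0.05 and black ticks for the value with length and GC trends removed. In PARP1 knockdown NCL stands at -2.27 and RRP9 at 1.14, and the ticks of RRP9, NHP2 and FBL lie close to 0 in both panels.

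Levels between genes can be compared per length, by the deposited FPKM. In control the members ran from 1.16 ± 0.321 FPKM for UTP20 to 169 ± 6.03 FPKM for RRS1 (SD, n = 3), with MRTO4 (161 ± 14.5 FPKM) next below RRS1 and within its spread, and a median of 35.3 FPKM. The median for ribosomal protein genes in control was 334 FPKM and that for all genes tested 2.73 FPKM. Members of lower FPKM tended to have lower fold changes: over the 40 genes the Spearman correlation between control FPKM and log2 fold change was 0.535 in TRIM28 knockdown and 0.507 in PARP1 knockdown. With length and GC trends removed it was 0.282 and 0.244, and over all genes tested, as counted, 0.225 and 0.18. These are descriptions over genes that share the same 9 libraries.

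The direction of a member went with its length and its GC content. Across the 40 genes the Spearman correlation of log2 fold change with summed exon length was -0.46 in TRIM28 knockdown and -0.477 in PARP1 knockdown, and with GC content 0.562 and 0.576. Across all genes tested the same values were -0.414 and -0.428 for length and 0.424 and 0.509 for GC, and genes are not independent replicates. Of the 19 members with GC under 50%, 3 rose and 12 fell in TRIM28 knockdown and 3 rose and 15 fell in PARP1 knockdown. Of the 21 members at or above 50%, 7 rose and 3 fell in TRIM28 knockdown and 9 rose and 5 fell in PARP1 knockdown. Among all genes tested with GC under 50%, 5.43% rose and 26.5% fell in TRIM28 knockdown and 12% rose and 47.5% fell in PARP1 knockdown. Among all genes at or above 50%, 16.1% rose and 7.2% fell in TRIM28 knockdown, and 45.3% rose and 14.6% fell in PARP1 knockdown, so the members' rises there lay near that background in PARP1 knockdown. The part of length and GC in these changes was not tested.

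With length and GC trends removed from each library, 4 of the 40 rose and 13 fell in TRIM28 knockdown, against 10.9% and 10.5% of all genes, and 7 rose and 19 fell in PARP1 knockdown, against 23.9% and 22.6%. Between knockdowns 10 were higher and 4 lower in TRIM28 knockdown, against 7.06% and 7.57%. Of the 15 falls in TRIM28 knockdown 13 passed again, all but NPM1 and UTP15, and of the 20 in PARP1 knockdown 16, all but NPM1, UTP4, UTP20 and WDR12. Of the 10 rises in TRIM28 knockdown 3 passed again (NME1, POLR1C and POLR1D), and of the 12 in PARP1 knockdown 6 (BOP1, MRTO4, NME1, NOP16, POLR1C and POLR1D). Members departed from the length trend both ways, among them POLR1D, with 12363 bases of exon and log2 fold changes that stood at 0.80 and 1.40 after the trends were removed. RRS1, with 1720 bases and 56.3% GC, passed in neither knockdown as counted (0.15 and -0.13) and fell by 0.91 in PARP1 knockdown after the trends were removed (adjusted p = 3.55e-05).

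**Figure D4:**
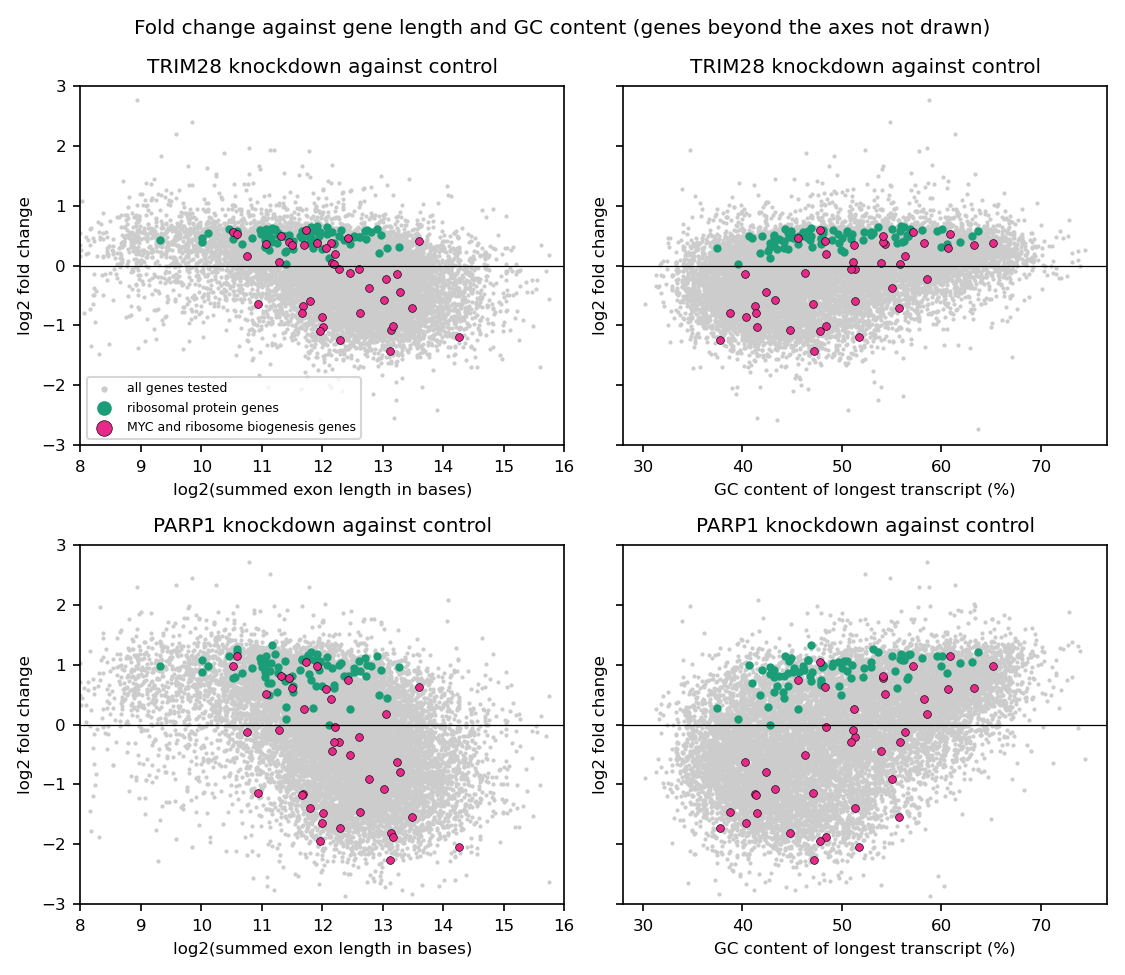
Log2 fold change (vertical axes) in TRIM28 knockdown (top) and PARP1 knockdown (bottom) of every gene tested, against log2 of its summed exon length in bases (left) and the GC content of its longest transcript (right), with the 40 genes in pink and ribosomal protein genes in green. Members spread along the slope of all genes. Ribosomal protein genes, with at most 9840 bases, lie in a narrow band, nearly all above 0, across their own lengths. Their fold changes went up with GC content (Spearman correlation 0.402 in TRIM28 knockdown and 0.542 in PARP1 knockdown).

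Stability of the members' calls was uneven between directions and knockdowns. It was not counted over all genes tested, so these counts have no background beside them. Leaving out each of the 9 libraries in turn, 10 of the 15 falls in TRIM28 knockdown passed every time (DKC1, GNL3, NCL, NOLC1, POLR1A, POLR1B, RRN3, TCOF1, WDR43 and WDR75), and 2 of the 10 rises did (NHP2 and NME1). In PARP1 knockdown all 12 rises and 19 of the 20 falls, all but MYC, passed every time. The 10 stable falls of TRIM28 knockdown were among those 19, and each also passed with length and GC trends removed in both knockdowns.

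TRIM28 knockdown and PARP1 knockdown were also compared with each other. Of the 40 genes, 14 were higher in TRIM28 knockdown, 6 were lower and 20 did not pass, against 13.2% and 11.9% of all genes tested, and the median log2 fold change was 0.34 where that of all genes was 0.03. Differences of at least 2-fold numbered 0 in either direction, against 1.73% of all genes higher and 0.723% lower. POLR1A (0.86 ± 0.15, adjusted p = 0.000453), DKC1 (0.86 ± 0.17), NOLC1 (0.84 ± 0.16), NCL (0.84 ± 0.17), TCOF1 (0.83 ± 0.14), NOP14 (0.80 ± 0.16) and POLR1B (0.73 ± 0.19, adjusted p = 0.00642) were higher in TRIM28 knockdown than in PARP1 knockdown in every fit that left out 1 library, and these all lay below control in both. WDR43 (0.78 ± 0.20), UBTF (0.53 ± 0.15), GAR1 (0.51 ± 0.17), NPM1 (0.50 ± 0.15), MYC (0.48 ± 0.17), WDR12 (0.48 ± 0.14) and UTP4 (0.38 ± 0.14) completed the 14. RRP9 (-0.60 ± 0.14, adjusted p = 0.00376) was lower in TRIM28 knockdown in every such fit, and BOP1 (-0.59 ± 0.15), NME1 (-0.45 ± 0.15), NHP2 (-0.43 ± 0.14), RRP12 (-0.40 ± 0.14) and NOP16 (-0.39 ± 0.14) were the other 5. RRP12 passed here though in neither comparison with control. It had 220, 254 and 272 CPM in TRIM28 knockdown and 391, 312 and 282 CPM in PARP1 knockdown, and control lay between at 267, 296 and 310 CPM.

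Several of these calls rested on single libraries. Calls over all genes tested were not counted in the fits that left out 1 library, so the counts below have no background beside them. The count was 18 higher and 9 lower without PARP1 knockdown replicate 1, 8 and 3 without PARP1 knockdown replicate 3, 12 and 2 without replicate 2, and 8 and 1 without TRIM28 knockdown replicate 1. Without TRIM28 knockdown replicate 2 or 3 it was 11 and 2, or 12 and 3. MYC lost its call in every such fit except the one without PARP1 knockdown replicate 1 (0.27 to 0.55), and UTP4 except that one too (0.24 to 0.41). NHP2, NME1 and NOP16 each lost it without PARP1 knockdown replicate 2 or 3 or any 1 TRIM28 knockdown library (-0.49 to -0.27), and RRP12 without replicate 1 or 2 of either knockdown (-0.44 to -0.25). GAR1 (0.30), NPM1 (0.38), UBTF (0.35) and WDR12 (0.37) lost it without PARP1 knockdown replicate 3. They also lost it without TRIM28 knockdown replicate 1 for GAR1 (0.51), NPM1 (0.42) and WDR12 (0.44), replicate 2 for GAR1 (0.43) and replicate 3 for UBTF (0.46), and WDR43 (0.70) and BOP1 (-0.53) lost it without TRIM28 knockdown replicate 1.

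The ribosomal protein genes moved one way. In TRIM28 knockdown 60 of 79 rose, 0 fell and 19 did not pass, with a median of 0.48. In PARP1 knockdown 75 rose, 0 fell and 4 did not pass, with a median of 0.94. The rises are 75.9% and 94.9%, against 10.3% and 27.1% of all genes tested. Falls among all genes were 17.5% and 32.2%. DESeq2 also called 0 lower in either knockdown, and no member of the list had a log2 fold change below -0.01. The 4 that did not pass in PARP1 knockdown were RPL4 (0.26), RPL5 (0.28), RPL6 (-0.01) and RPL7 (0.09), named after their values were seen. RPL18, a protein of the large subunit, had 1620, 1660 and 1630 CPM in TRIM28 knockdown and 1830, 2500 and 2760 CPM in PARP1 knockdown, against 920, 1000 and 1190 CPM in control, with the groups apart (0.66 ± 0.14 and 1.19 ± 0.15). FAU had 503, 528 and 471 CPM in TRIM28 knockdown and 583, 855 and 1040 CPM in PARP1 knockdown, against 302, 326 and 399 CPM in control (0.55 ± 0.16 and 1.27 ± 0.16), and its groups were apart as well. The TRIM28 knockdown call of FAU ended without control replicate 1 (0.48) or 2 (0.53). RPS2 (0.61 ± 0.14 and 1.17 ± 0.14), RPS9 (0.64 ± 0.15 and 1.13 ± 0.15) and RPL7A (0.58 ± 0.13 and 0.90 ± 0.14) rose in both. Set against PARP1 knockdown directly, TRIM28 knockdown had 47 of the 79 lower (59.5%) and 0 higher (0 by DESeq2 as well). Of all genes tested 11.9% were lower and 13.2% higher. RPS16 (-0.84 ± 0.15) and RPS19 (-0.68 ± 0.15) were among the smallest adjusted p.

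Their rises were present at every setting of scale and trend tried, in differing numbers. Across the 79 genes the Spearman correlation of log2 fold change with exon length was -0.0371 in TRIM28 knockdown and -0.125 in PARP1 knockdown, and with GC content 0.402 and 0.542. After length and GC trends were removed the correlation with length was 0.824 and 0.789. With length and GC trends removed 49 and 67 rose and 0 fell in TRIM28 knockdown and PARP1 knockdown. In that setting 10.9% and 23.9% of all genes rose, and 10.5% and 22.6% fell. When library totals replaced TMM factors, a scale on which the median of all genes shifted by -0.16 (TRIM28 knockdown) and -0.32 (PARP1 knockdown), 37 and 68 rose, and RPL6 (-0.34) and RPL7 (-0.25) fell in PARP1 knockdown. On that scale 4 of the 40 genes rose and 16 fell in TRIM28 knockdown, and 8 rose and 26 fell in PARP1 knockdown, against 3.34% and 21.1%, and 14.9% and 42.8%, of all genes. Between knockdowns 17 were higher and 2 lower in TRIM28 knockdown on that scale, against 17.3% and 4.72%.

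**Figure D5:**
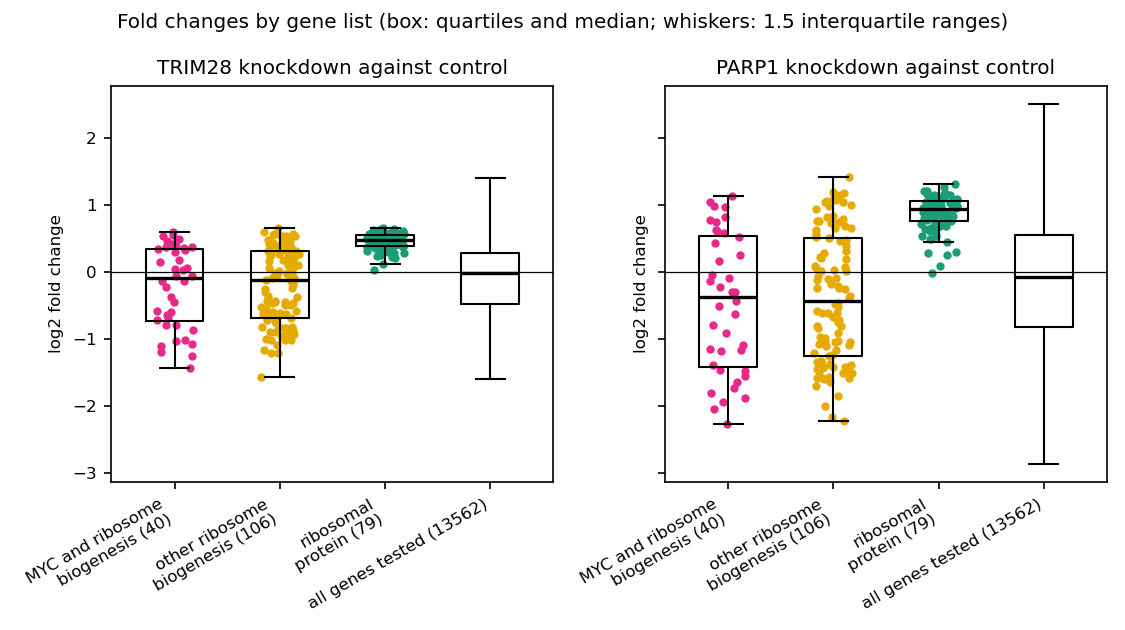
Log2 fold change in TRIM28 knockdown (left) and PARP1 knockdown (right) against control for the 40 genes, 106 other ribosome biogenesis genes, 79 ribosomal protein genes and all 13562 genes tested, with a point for each gene (all genes as a box alone), boxes for quartiles and median, and whiskers to 1.5 interquartile ranges. The medians in PARP1 knockdown are -0.37, -0.42, 0.94 and -0.07 in that order.

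The other genes of the pathway moved in both directions too. Of 106 further ribosome biogenesis genes, TRIM28 knockdown had 20 higher, 39 lower and 47 not passing (median -0.12), and PARP1 knockdown 32 higher, 51 lower and 23 not passing (median -0.42). As shares these are 18.9% higher and 36.8% lower in TRIM28 knockdown, against 10.3% and 17.5% of all genes, and 30.2% and 48.1% in PARP1 knockdown, against 27.1% and 32.2%, so the rises in PARP1 knockdown lay near the background. WDR3, a small subunit processome protein, had 13.4, 15.0 and 18.6 CPM in TRIM28 knockdown and 10.7, 10.2 and 8.81 CPM in PARP1 knockdown, against 50.2, 56.1 and 32.6 CPM in control (-1.56 ± 0.18 and -2.22 ± 0.19), and its groups did not overlap. GTPBP4, a GTPase of the large subunit (-1.01 ± 0.16 and -1.69 ± 0.16), RRP1B, a paralogue of RRP1 (-0.92 ± 0.14 and -1.38 ± 0.15), and TSR1, a factor of the small subunit (-0.89 ± 0.15 and -1.99 ± 0.16), fell in both. RRP15, a large subunit factor, had 18.6, 14.3 and 16 CPM in TRIM28 knockdown and 5.83, 5.5 and 3.96 CPM in PARP1 knockdown, against 23.5, 25.2 and 20.4 CPM in control. It thus fell more in PARP1 knockdown (-2.16 ± 0.19) than in TRIM28 knockdown (-0.49 ± 0.17), and the direct difference of 1.67 ± 0.19 passed (adjusted p = 2.65e-06). Its TRIM28 knockdown call ended without TRIM28 knockdown replicate 2 (-0.38) or 3 (-0.46) or control replicate 1 (-0.46) or 2 (-0.40).

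Rises in this list included subunits of the RNA exosome, which trims the ends of pre-rRNA. EXOSC4 (0.55 ± 0.17 and 1.42 ± 0.17) and EXOSC5 (0.60 ± 0.15 and 1.15 ± 0.15) rose in TRIM28 knockdown and in PARP1 knockdown. EXOSC10, the nuclear exonuclease of the same complex, fell (-0.69 ± 0.16 and -1.57 ± 0.16). NOL12 (0.66 ± 0.15 and 1.18 ± 0.15), NOP53 (0.55 ± 0.14 and 1.02 ± 0.14) and WDR18 (0.43 ± 0.15 and 1.20 ± 0.15), all factors of ribosome maturation, rose in both knockdowns. The TRIM28 knockdown call of EXOSC4 ended without control replicate 1 (0.49) or 2 (0.54), and that of WDR18 without any TRIM28 knockdown library or control replicate 1 or 2 (0.39 to 0.49). With length and GC trends removed WDR18 stood at 0.05 and 0.16, and the list held 22 falls in TRIM28 knockdown in place of 39.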

How the data were processed

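Gene counts in the deposited table are raw whole numbers, per the file headers and values, and beside them the authors deposited an FPKM value for each gene. The submitters' processing notes name STAR 2.7.9a, Trim Galore 0.6.6, FastQC 0.11.9, R 4.0.3, DESeq2 1.30.0, featureCounts 2.0.1 and the GRCh38 build. Annotation release and strand setting were not given in the sources used here.

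Tests ran on the deposited counts in edgeR 4.0.16 under R 4.3.3 (TMM factors, default low-count filter, quasi-likelihood test, 9 libraries in 1 fit of 3 groups, 6 residual degrees of freedom, Benjamini-Hochberg at 0.05). The biological coefficient of variation was 0.149. The members and lists were chosen with earlier results of these data known, so no list is tested as such. Sample values are given for MYC, MAX, members past the threshold with a change of at least 2-fold in either knockdown, and, per role, the member with the smallest adjusted p in each direction and knockdown; other lists give up to 3 genes per direction and comparison by adjusted p, and other members are named by their fold changes. Printed E-box promoters are those of up to 6 members with such a sample value. Printed ribosomal protein promoters were taken among those with a pyrimidine run, by smallest p in PARP1 knockdown.

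Alternatives were DESeq2 1.42.0, its size factors, no filter, library totals, limma 3.58.1 on log2(FPKM + 1) or log2(FPKM + 0.1) with a mean FPKM of at least 0.5, the compared groups alone, a replicate block, each library left out, and lowess removal (span 0.3) of length or length and GC trends, with GC from GENCODE release 29 for 98.7% of tested genes. Motifs were also counted over any listed start, an alternative chosen after seeing the data. The fits were tested on simulated data, and no libraries were duplicates. Figures used matplotlib 3.10.9. The value of 1 marker gene is not reported here.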

Additional observations from a re-analysis of the deposited data

How the results depend on the processing

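Under the alternatives tried, gene values of the 40 members kept direction and side of the threshold in 1994 cases, passed newly in 88, no longer passed in 191 and reversed in 7. Sign changes of values that passed in neither setting were not counted as reversals. The cause of each change below was not tested. Calls over all genes were counted with length and GC trends removed and with library totals, and those shares are given above. Counts under the other alternatives have no background beside them. Rises of members in TRIM28 knockdown numbered 10, against 4 with length and GC trends removed, 5 with the length trend removed, 4 with library totals, 5 with limma at either pseudocount, 6 without a filter and 2 to 13 with 1 library left out. Their median of -0.09 was -0.06 with DESeq2 or its size factors, -0.03 with length and GC trends removed, 0.02 with the length trend removed, -0.25 with library totals, -0.25 and -0.24 with limma (pseudocounts 0.1 and 1), -0.11 without a filter and -0.09 to -0.06 with 1 library left out. In PARP1 knockdown the 12 rises became 7 with length and GC trends removed, and the median of -0.37 became -0.67 with library totals and -0.75 with limma (pseudocount 0.1). Between knockdowns, 14 members higher became 8 to 18 with 1 library left out. The 6 lower became 2 with library totals, 2 with limma at either pseudocount and 1 to 9 with 1 library left out. The median of 0.34 became 0.16 with length and GC trends removed, 0.50 with library totals, 0.51 with limma (0.1) and 0.24 to 0.34 with 1 library left out.

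Of ribosomal protein genes, 60 rises in TRIM28 knockdown became 37 with library totals, 30 and 34 with limma (0.1 and 1) and 20 to 73 with 1 library left out, and the median of 0.48 became 0.33 in these 3 scalings. In PARP1 knockdown 0 falls became 2 and the median of 0.94 became 0.60 in the same scalings. Between knockdowns 0 higher became 2 there, 47 lower became 19, 11 and 9 (10 to 71 with 1 library left out), and the median of -0.43 became -0.25 (-0.58 to -0.32 with 1 library left out). Of other ribosome biogenesis genes, 20 rises in TRIM28 knockdown became 31 in the compared groups alone, 11 with library totals, 10 with limma and 5 to 29 with 1 library left out, and 39 falls became 22 with length and GC trends removed, 25 with the length trend removed and 18 to 42 with 1 library left out. Between knockdowns 27 higher became 14 and 19 lower became 12 with length and GC trends removed, and 19 lower became 7 with library totals, 8 with limma and 8 to 24 with 1 library left out. Once length and GC trends were removed, PARP1 knockdown reversed for FBL (-0.04), UTP4 (0.03), UTP20 (0.13), WDR12 (0.22), NIP7 (0.31), PPAN (-0.19), NOC4L (-0.23) and SRM (-0.20), and the direct comparison for NHP2 (0.01), NOC4L (0.02) and SRM (0.10). Ribosomal protein promoters with an E-box numbered 3, and 1 in the window from 100 bases before the start.

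Correlations of same-numbered deviations were small: 0.0113 to 0.141 for TRIM28 knockdown with control, 0.03 to 0.0796 for PARP1 knockdown with control and -0.0814 to 0.00862 between knockdowns. Those of libraries with different numbers ran from -0.164 to 0.0608, -0.0693 to 0.0422 and -0.0868 to 0.118 in the same order. Whether replicate numbers pair the libraries weakly was not tested. With a replicate block members had 13 higher and 15 lower in TRIM28 knockdown, 12 and 20 in PARP1 knockdown, and 16 and 6 between them. Calls over all genes were not counted with the block.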

Other observations

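Of 23 tested partners and regulators of MYC outside the 40 genes, 3 rose and 3 fell in TRIM28 knockdown and 7 rose and 6 fell in PARP1 knockdown. The shares of 13.0% higher and 13.0% lower, and 30.4% and 26.1%, lay near those of all genes (10.3% and 17.5%, and 27.1% and 32.2%). TRRAP, a scaffold of histone acetyltransferase complexes that MYC binds, fell in both (-1.03 ± 0.17 and -1.68 ± 0.17), as did EP400 of the same assemblies (-1.04 ± 0.16 and -1.43 ± 0.16), while the helicase RUVBL2 rose in both (0.57 ± 0.14 and 1.05 ± 0.14). MYCL, a MYC paralogue, had 1.62, 2.31 and 2.11 CPM in TRIM28 knockdown and 0.464, 0.507 and 0.396 CPM in PARP1 knockdown, against 1.78, 1.79 and 1.94 CPM in control. It fell in PARP1 knockdown (-1.98 ± 0.41, adjusted p = 0.00021) without overlap, and its direct difference was 2.11 ± 0.42 (adjusted p = 0.00133).

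Of 25 tested MYC targets outside the nucleolus, 4 rose and 6 fell in TRIM28 knockdown and 8 rose and 11 fell in PARP1 knockdown. These are 16% higher and 24% lower, and 32% and 44%, against 10.3% and 17.5%, and 27.1% and 32.2%, of all genes, so the rises in PARP1 knockdown lay near the background. TFRC, the transferrin receptor, had 23.0, 20.8 and 18.9 CPM in TRIM28 knockdown and 18.3, 16.6 and 16.1 CPM in PARP1 knockdown, against 69.9, 69.9 and 39.6 CPM in control, so both knockdowns lay below control (-1.52 ± 0.18 and -1.81 ± 0.18). HK2, a hexokinase, fell in both (-0.99 ± 0.16 and -1.58 ± 0.17), and PHB1 (prohibitin) rose in both (0.50 ± 0.14 and 0.92 ± 0.14). SMS, spermine synthase, fell in PARP1 knockdown (-1.12 ± 0.14) and differed directly (0.90 ± 0.14, adjusted p = 0.000164).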
